A study of Mus musculus with 6 samples.

Results

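The genes described here act in mitosis, from entry into division to the separation of the chromosomes, and were measured in mouse spleens with and without overexpression of AIMP2-DX2. The controls were littermates. A gene was included if it was 1 of 47 symbols chosen for function (kinetochore, spindle checkpoint, spindle, condensin and mitotic entry) and had a probe set, the array's group of probes for a transcript, annotated to that symbol alone. That held for 45 of the 47, among 22180 genes measured in all, and each of the 45 had 1 such probe set. Ccnb1 (cyclin B1) and Ncapg (a condensin subunit) had none and were not analysed as members. Each group held 3 spleens, 1 Affymetrix array per spleen. Both groups were 1 year old, carried a DX2 transgene under the tetracycline-responsive TRE element (TRE DX2/+), and had been fed pellets with doxycycline (6.25 mg/kg) from the age of 8 weeks. The DX2 mice also carried CAG-rtTA, the doxycycline-dependent activator driven by the broadly active CAG promoter, and the control mice had no rtTA, so effects of DX2 and of rtTA cannot be told apart. DX2 is a splice variant that lacks an exon of AIMP2, a scaffold protein for aminoacyl-tRNA synthetases. The labels call the samples of a group biological replicates.

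A cell enters mitosis when cyclin-bound Cdk1, helped by the Polo and Aurora kinases, drives chromosome condensation and spindle assembly. Kinetochores, protein assemblies built on each centromere, then attach chromosomes to spindle microtubules, and the spindle checkpoint holds back the anaphase-promoting complex until every chromosome is attached. Most of these genes are transcribed in the late part of the cell cycle and are low in resting cells, so in tissue RNA they are widely used as a sign of dividing cells. In the adult mouse spleen the dividing cells include erythroblasts of the red pulp, activated and germinal centre B cells, plasmablasts and blood progenitors. Late cell cycle promoters commonly hold a CHR element (cell cycle genes homology region), to which the MuvB complex binds, and CCAAT boxes, to which NF-Y binds.

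The promoters of 4 of the genes are shown as examples of CHR elements and CCAAT boxes, which did not enter the choice of members. They were picked from the members with a CHR element, which most members lacked in the window searched, by the smallest unadjusted p between the groups. Each is printed 5′ to 3′ up to the base before the RefSeq transcription start (build GRCm38.p6), over 150 bases, or 250 for Top2a. Capitals mark the CHR letters (TTTGAA, or TTCAAA on the other strand) and the CCAAT box (CCAAT, or ATTGG on the other strand).
Ckap2l (chr2:129297213-129297362, minus strand): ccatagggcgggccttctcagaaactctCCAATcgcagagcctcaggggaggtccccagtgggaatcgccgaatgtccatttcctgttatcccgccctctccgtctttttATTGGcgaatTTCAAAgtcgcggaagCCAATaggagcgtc
Cdc20 (chr4:118437344-118437493, minus strand): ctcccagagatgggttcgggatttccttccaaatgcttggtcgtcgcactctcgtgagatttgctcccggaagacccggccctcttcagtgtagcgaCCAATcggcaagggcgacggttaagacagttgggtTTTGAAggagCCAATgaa
Ube2c (chr2:164769779-164769928, plus strand): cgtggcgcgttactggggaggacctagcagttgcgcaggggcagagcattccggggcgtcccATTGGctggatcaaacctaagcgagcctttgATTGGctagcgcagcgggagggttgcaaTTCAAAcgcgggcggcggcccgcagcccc
Top2a (chr11:99024190-99024439, minus strand): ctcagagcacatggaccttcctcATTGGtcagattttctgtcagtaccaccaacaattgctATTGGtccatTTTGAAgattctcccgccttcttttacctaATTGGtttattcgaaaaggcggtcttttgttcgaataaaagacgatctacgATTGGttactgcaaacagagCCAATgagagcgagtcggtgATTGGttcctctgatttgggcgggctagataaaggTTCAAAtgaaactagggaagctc
In Ckap2l, Cdc20 and Ube2c the CHR element began 30, 18 and 29 bases before the start, and Top2a held elements at 179 and 23 bases. Kif2c also held the letters, but all 150 bases before its listed start lie inside the span of a longer transcript, so that window is not printed. In the printed windows 16 bases of Ckap2l, which take in its CCAAT box at 14 bases, and 10 bases of Top2a lie inside the gene's span. In the 250 bases before the start, 16 of 39 promoters of the members held a CHR element (41.0%), against 16% of all 32851 promoters of the RefSeq table. A CCAAT box was found in 29 of the 39 (74.4%), against 33.8%, and both motifs in 14 (35.9%), against 5.55%. The 39 promoters covered 37 members, and 8 measured members, Aurkb among them, had no entry. Both strands were searched, base composition was not compared, and a match of letters is not evidence of binding.

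2 features of the arrays bear on all values below. By their sex-linked transcripts controls 1 and 2 were female, with Xist at 10.89 and 10.54 (log2), and control 3 and all DX2 spleens were male, with Xist between 3.89 and 4.29, so genotype was partly confounded with sex. The probe set that covers Aimp2 is also annotated to Eif2ak1 and read 6.11, 6.34 and 6.03 in control and 6.23, 6.50 and 6.51 in DX2 spleens (log2), so it gave no clean check of the labels. The median log2 value over all genes lay between 5.42 and 5.46 on every array. Over all probe sets, named or not, the median was 5.2, 5.17 and 5.16 in control and 5.12, 5.07 and 5.06 in DX2 spleens. It was thus lower in every DX2 spleen than in any control. Where arrays were centred on their medians, these medians over all probe sets were used. Precision is limited by there being only 6 arrays.

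All 45 mitotic genes had a higher mean in DX2 than in control spleens, as did 51.5% of all genes. Their median log2 difference was 0.95, a 1.93-fold difference, against 0.01 over all genes, and the differences ran from 0.27 for Smc4 to 1.51 for Ube2c. For 16 of the 45 the difference was at least 2-fold, against 0.866% of all genes. Only Ckap2l, a spindle protein, passed limma's test over all genes at an adjusted p of 0.05 (Benjamini-Hochberg), 1 of 45 against a background of 0.0361% of genes called higher. At an unadjusted p under 0.05, 40 of the 45 were higher, against 8.13% of all genes. The 3 DX2 values all lay above the 3 control values for 31 of the 45, against 10.7% of all genes. The count of 40 was 24 without control 1 (5.48% of all genes), 23 without DX2 3 (5.91%), 44 without DX2 2 (9.62%), 10 with a term for sex (3.76%) and 17 in the 4 male spleens alone (3.06%). With the sex term and in the male spleens the median difference was 0.79, the same by construction. All 3 DX2 spleens lay above the male control 3 for 40 of the 45 genes, against 28.8% of all genes. In RNA from whole tissue, more (or fewer) cells of a type and more (or less) RNA per cell cannot be told apart.

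**Figure D1:**
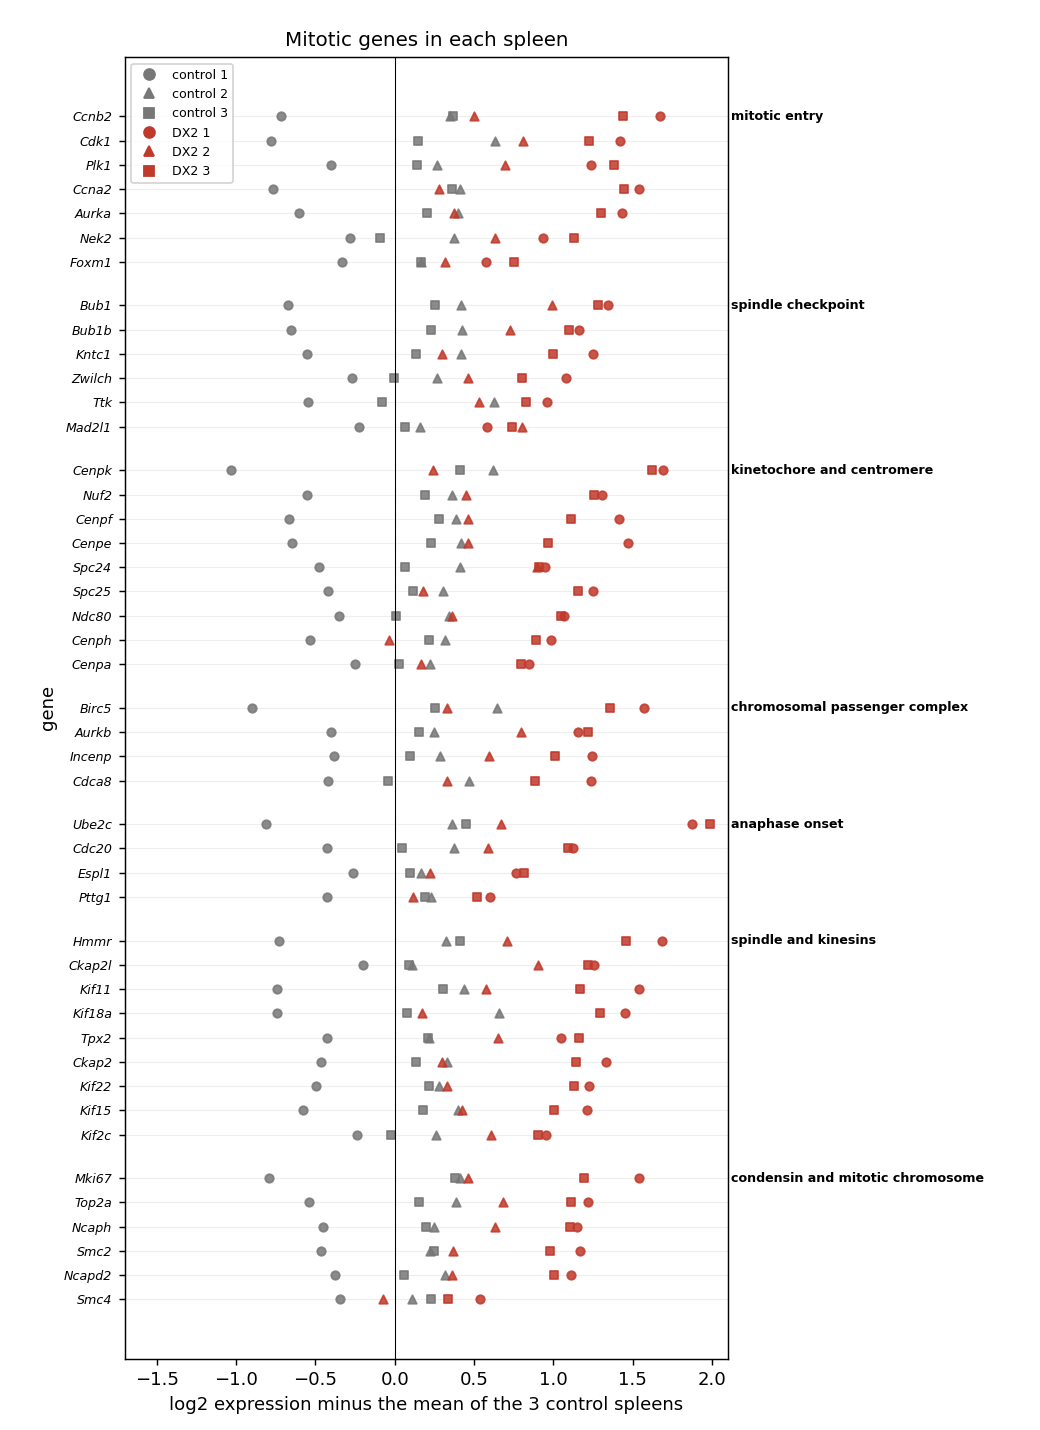
Log2 expression of the 45 mitotic genes in each spleen, given as the difference from the mean of the 3 control spleens (horizontal axis, log2), with genes in rows by role and 1 point per spleen (gray control, red DX2, shape by replicate). Control 1 is the lowest control in all 45 rows, and DX2 1 and DX2 3 lie above every control, while DX2 2 lies above every control in 31 rows.

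The lowest spleen of each group was the same for nearly all 45 genes, and the order of the others varied more. Control 1 was the lowest control spleen for 45 of 45 genes, and DX2 2 was the lowest DX2 spleen for 44 of 45, Mad2l1 being the exception. DX2 1 was the highest of all DX2 spleens for 37 genes and DX2 3 for 7. DX2 1 and DX2 3 each lay above all 3 controls for 45 of 45 genes, against 29.4% and 31.0% of all genes, and DX2 2 did so for 31 of 45, against 33.9%. A first principal component held 95.7% of the variance of the 45 genes over the 6 spleens, which includes the difference between the groups. The 45 genes thus moved largely together, and counts of them are not counts of independent observations. The mean log2 value of the 45 genes was 6.38, 7.25 and 7.07 in controls 1, 2 and 3 and 8.10, 7.38 and 8.00 in DX2 1, 2 and 3. The groups did not overlap in this mean, but DX2 2 stood closer to controls 2 and 3 than to the other DX2 spleens, with a median difference per gene of 0.17 from the former and -0.68 from the latter (log2). Control 2, a female spleen, was above the male control 3 for 40 of the 45 genes, by a median of 0.19.

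Genes of mitotic entry had a median difference of 1.09 over 7 measured members, all higher in DX2. Plk1, the Polo kinase that helps activate Cdk1 and builds the spindle, read 6.79, 7.45 and 7.33 in control and 8.43, 7.88 and 8.57 in DX2 spleens (log2). Every DX2 value lay above every control value, and the difference was 1.10 (SE 0.23, adjusted p = 0.101). Nek2, a kinase that separates the centrosomes, read 5.90, 6.55 and 6.09 in control and 7.12, 6.82 and 7.31 in DX2 spleens. The groups again did not overlap (difference 0.90, SE 0.20, adjusted p = 0.107).

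Cdk1 itself, the kinase of mitotic entry, read 6.55, 7.97 and 7.49 in control and 8.75, 8.15 and 8.56 in DX2 spleens (log2). The difference of 1.15 (SE 0.34) had an adjusted p of 0.176, and DX2 2 exceeded control 2 by 0.18. The cyclins Ccnb2 and Ccna2, which bind Cdk1, differed by 1.20 (SE 0.38) and 1.09 (SE 0.42), and Ccna2 was lower in DX2 2 (8.53) than in controls 2 (8.66) and 3 (8.61). Aurka, the Aurora kinase of the spindle poles, differed by 1.04 (SE 0.35) and also overlapped. Foxm1, a transcription factor of late cell cycle genes, had the smallest difference of the group at 0.55 (SE 0.18), with no overlap.

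Spindle checkpoint genes had a median difference of 0.81, and 4 of the 6 were higher without overlap between groups, against 10.7% of all genes. Mad2l1 (MAD2), which binds and restrains Cdc20, read 6.92, 7.30 and 7.21 in control and 7.72, 7.95 and 7.88 in DX2 spleens (log2). It was the only member highest in DX2 2, and the difference was 0.71 (SE 0.14, adjusted p = 0.0834). Bub1, a checkpoint kinase at the kinetochore, read 5.71, 6.79 and 6.63 in control and 7.72, 7.37 and 7.65 in DX2 spleens. Its difference was 1.20 (SE 0.28, adjusted p = 0.110), and the lowest DX2 value was 0.57 above the highest control value.

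Zwilch, a subunit of the complex that brings dynein to kinetochores, read 5.36, 5.90 and 5.63 in control and 6.71, 6.09 and 6.43 in DX2 spleens (log2). The groups did not overlap (difference 0.78, SE 0.20, adjusted p = 0.129). Its partner Kntc1 (ROD) differed by 0.85 (SE 0.31) and overlapped, as did the checkpoint kinase Ttk (MPS1) at 0.77 (SE 0.28). Bub1b (BUBR1), which acts with MAD2 on Cdc20, differed by 1.00 (SE 0.28) without overlap.

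Kinetochore and centromere genes had a median difference of 0.92 over 9 members. Spc24, a subunit of the Ndc80 complex that grips microtubules, read 5.88, 6.77 and 6.42 in control and 7.30, 7.25 and 7.26 in DX2 spleens (log2). The DX2 values differed from each other by less than in any other member (SD 0.03), and the difference from control was 0.92 (SE 0.21, adjusted p = 0.110). Ndc80 read 7.11, 7.81 and 7.47 in control and 8.53, 7.82 and 8.51 in DX2 spleens. Here DX2 2 exceeded control 2 by 0.02, so the groups only just separated (difference 0.82, SE 0.24, adjusted p = 0.172).

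Nuf2, the partner of Ndc80, read 6.89, 7.81 and 7.64 in control and 8.75, 7.90 and 8.70 in DX2 spleens (log2), a difference of 1.00 (SE 0.31, adjusted p = 0.182). Spc25, the fourth subunit of that complex, overlapped (0.86, SE 0.31), so its subunits differed in how DX2 2 stood against the controls although all 4 were higher on average. Cenpf and the kinesin Cenpe, which act at the outer kinetochore, differed by 0.99 (SE 0.33) and 0.97 (SE 0.33) without overlap. The centromeric histone Cenpa differed by 0.60 (SE 0.21) and the inner kinetochore genes Cenpk and Cenph by 1.18 (SE 0.52) and 0.61 (SE 0.32), all 3 with overlap.

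Genes of the chromosomal passenger complex, the Aurora B kinase with its 3 companions, differed by 0.82 to 1.08. Aurkb read 6.13, 6.78 and 6.68 in control and 7.68, 7.32 and 7.74 in DX2 spleens (log2). The lowest DX2 value was 0.55 above the highest control value, and the difference was 1.06 (SE 0.20, adjusted p = 0.0834). Incenp, the scaffold of the complex, read 6.42, 7.09 and 6.90 in control and 8.04, 7.39 and 7.81 in DX2 spleens, also without overlap (0.95, SE 0.22, adjusted p = 0.112). Cdca8 (borealin) read 5.89, 6.78 and 6.27 in control and 7.55, 6.65 and 7.20 in DX2 spleens. It overlapped (0.82, SE 0.29, adjusted p = 0.229), and so did Birc5 (survivin) at 1.08 (SE 0.45).

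Genes of anaphase onset varied most in size, from 0.41 to 1.51. Ube2c, the ubiquitin-conjugating enzyme of the anaphase-promoting complex, read 6.30, 7.48 and 7.56 in control and 8.99, 7.78 and 9.10 in DX2 spleens (log2). This was the largest difference of the 45 genes (1.51, 2.85-fold), but its SE of 0.44 was among the widest (adjusted p = 0.166). Cdc20, the activator of that complex, read 6.41, 7.21 and 6.89 in control and 7.96, 7.43 and 7.93 in DX2 spleens, with no overlap (0.94, SE 0.23, adjusted p = 0.125). Espl1 (separase), which cuts cohesin, read 6.11, 6.54 and 6.47 in control and 7.13, 6.59 and 7.19 in DX2 spleens (0.60, SE 0.19, adjusted p = 0.202). Its inhibitor Pttg1 (securin) had a difference of 0.41 (SE 0.21) and overlapped.

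Among spindle genes and mitotic kinesins, Ckap2l had the smallest SE, close to that of Kif2c, and a larger difference than Kif2c. Ckap2l, a spindle protein whose mRNA is high in dividing cells, read 5.30, 5.61 and 5.59 in control and 6.76, 6.40 and 6.71 in DX2 spleens (log2). The lowest DX2 value was 0.79 above the highest control value, the widest gap of the 45 genes. Ckap2l rose by 1.12 (SE 0.14, 2.18-fold, adjusted p = 0.0387). Without control 1, control 2, control 3, DX2 1 or DX2 3 its difference was 1.03, 1.18, 1.17, 1.06 or 1.08 and its adjusted p 0.191, 0.159, 0.198, 0.0651 or 0.124, so the call was lost, and without DX2 2 it was kept (1.24, adjusted p = 0.0341). A term for sex gave 1.04 (adjusted p = 0.357), the male spleens alone an adjusted p of 0.678, and centring the arrays on their medians 1.22 (adjusted p = 0.058).

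Kif2c (MCAK), a kinesin that takes microtubules apart at kinetochores, read 6.25, 6.75 and 6.46 in control and 7.44, 7.09 and 7.39 in DX2 spleens (log2). The groups did not overlap (0.82, SE 0.16, adjusted p = 0.0878). Tpx2, which activates Aurora A on the spindle, read 7.08, 7.72 and 7.72 in control and 8.56, 8.16 and 8.67 in DX2 spleens, also without overlap (0.95, SE 0.22, adjusted p = 0.107). Hmmr, Kif11 (the motor that pushes spindle poles apart), Kif22 and Kif15 differed by 1.28, 1.09, 0.89 and 0.88 without overlap. Ckap2 (0.93, SE 0.31) and the kinesin Kif18a (0.97, SE 0.43) overlapped, and Kif18a had the deepest overlap of the 45, with DX2 2 at 6.85 below control 2 at 7.33.

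Condensin and mitotic chromosome genes included the member with the smallest difference. Ncaph, a regulatory subunit of condensin I, read 6.55, 7.24 and 7.19 in control and 8.15, 7.63 and 8.10 in DX2 spleens (log2), without overlap (0.96, SE 0.22, adjusted p = 0.112). Top2a, the topoisomerase that untangles chromosomes, read 7.96, 8.88 and 8.65 in control and 9.71, 9.18 and 9.61 in DX2 spleens (1.00, SE 0.25, adjusted p = 0.131). Ncapd2 read 6.89, 7.59 and 7.33 in control and 8.38, 7.63 and 8.27 in DX2 spleens, where DX2 2 exceeded control 2 by 0.04 (0.83, SE 0.24, adjusted p = 0.174). Those 3 genes kept to the common order of the spleens.

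Smc4, an ATPase subunit shared by both condensins, read 9.33, 9.78 and 9.90 in control and 10.21, 9.60 and 10.01 in DX2 spleens (log2). DX2 2 lay below controls 2 and 3, and the difference of 0.27 (SE 0.21, 95% interval -0.21 to 0.75) had an adjusted p of 0.583. Its partner Smc2 differed by 0.84 (SE 0.26) without overlap. Mki67 (Ki-67), which coats mitotic chromosomes and marks dividing cells, differed by 1.07 (SE 0.38), with DX2 2 at 10.67 just above control 2 at 10.62.

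Members differed in how far DX2 2, the lowest DX2 spleen, stood from the controls. All DX2 values lay above all control values for 31 genes, against 10.7% of all genes. The gap between the lowest DX2 and the highest control value had a median of 0.21 (log2) over the 31. It was at least 0.3 for 12 of them, and the share of all genes with such a gap was not counted. The widest gaps were those of Ckap2l (0.79), Bub1 (0.57), Aurkb (0.55), Spc24 (0.48), Tpx2 (0.43), Plk1 (0.43) and Mad2l1 (0.42). At the other end Kif18a, Cenpk, Cenph, Birc5 and Smc4 overlapped most, with DX2 2 minus the highest control at -0.49, -0.38, -0.35, -0.32 and -0.31 (log2). Kinetochore, passenger complex and spindle genes were found at both ends.

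Most other genes of the same machinery were also higher, but by less. They were listed by role, with earlier results of these data known. Of 90 measured genes 73 were higher in DX2, with a median difference of 0.37 against 0.95 for the 45 members. The count of 73 was 67 with a sex term and in the male spleens, 68 without control 1 and with a second quantile normalization, and 81 with arrays centred on their medians, which moved the median of all genes to 0.10. None passed limma's test over all genes, while 37 of 90 were higher at an unadjusted p under 0.05 and none lower, against 8.13% and 7.81% of all genes. Without DX2 2, 5 of the 90 passed (Cdca5, Fzr1, Kif18b, Spag5 and Ube2s), against 0.893% of all genes in that fit. Among 26 other kinetochore genes (median 0.48), Ska3, which helps kinetochores track microtubule ends, differed by 1.38 (SE 0.31), Cenpi by 0.99 (SE 0.21) and Cenpn by 0.86 (SE 0.20). Cenpo (-0.14), Zw10 (-0.05) and Mad1l1 (-0.02) lay slightly below 0.

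Among the other mitotic entry genes the median difference was 0.45. Wee1, the kinase that restrains Cdk1, differed by 0.65 (SE 0.12, adjusted p = 0.0815), the phosphatase Cdc25c that releases it by 1.04 (SE 0.30), and the transcription factor Mybl2 by 0.70 (SE 0.23). In that list 3 of 15 genes were lower, Lin37 (-0.18), Arpp19 (-0.15) and Lin52 (-0.11). Of the other spindle genes (median 0.43), Tubg1 (gamma-tubulin) differed by 0.64 (SE 0.11), Kif20a by 0.93 (SE 0.18) and Kif18b by 1.02 (SE 0.29). Numa1 (-0.16), Haus5 (-0.12) and Haus7 (-0.02) were among the 4 of 19 that were lower. Of the other condensin and cohesin genes (median 0.20), Cdca5 (sororin, which protects cohesion) differed by 0.88 (SE 0.18), Esco2 by 1.18 (SE 0.40) and Rad21 by 0.39 (SE 0.13). Pds5b (-0.16), Stag2 (-0.14) and Stag1 (-0.08) were among the 4 of 13 that were lower. Over all 5 lists, 31 of the 90 genes were higher without overlap, against 10.7% of all genes. Pds5b was the only 1 of the 90 genes lower without overlap, against 11.2% of all genes. Ube2s, which extends ubiquitin chains for the anaphase-promoting complex, differed by 0.90 (SE 0.17, adjusted p = 0.0817). Of the 17 genes listed for that complex 3 were lower, Anapc4 (-0.148), Anapc7 (-0.085) and Anapc1 (-0.023).

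Core subunits of the anaphase-promoting complex and of augmin lay near the median of all genes. The 14 subunits of the first had a median difference of 0.05 (-0.15 to 0.31), and the 7 augmin subunits, which seed microtubules inside the spindle, 0.04 (-0.12 to 0.37). In both sets 1 gene was higher at an unadjusted p under 0.05, against 8.13% of all genes, and none passed limma's test over all genes. Both sets were drawn from the lists after their values had been seen.

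**Figure D2:**
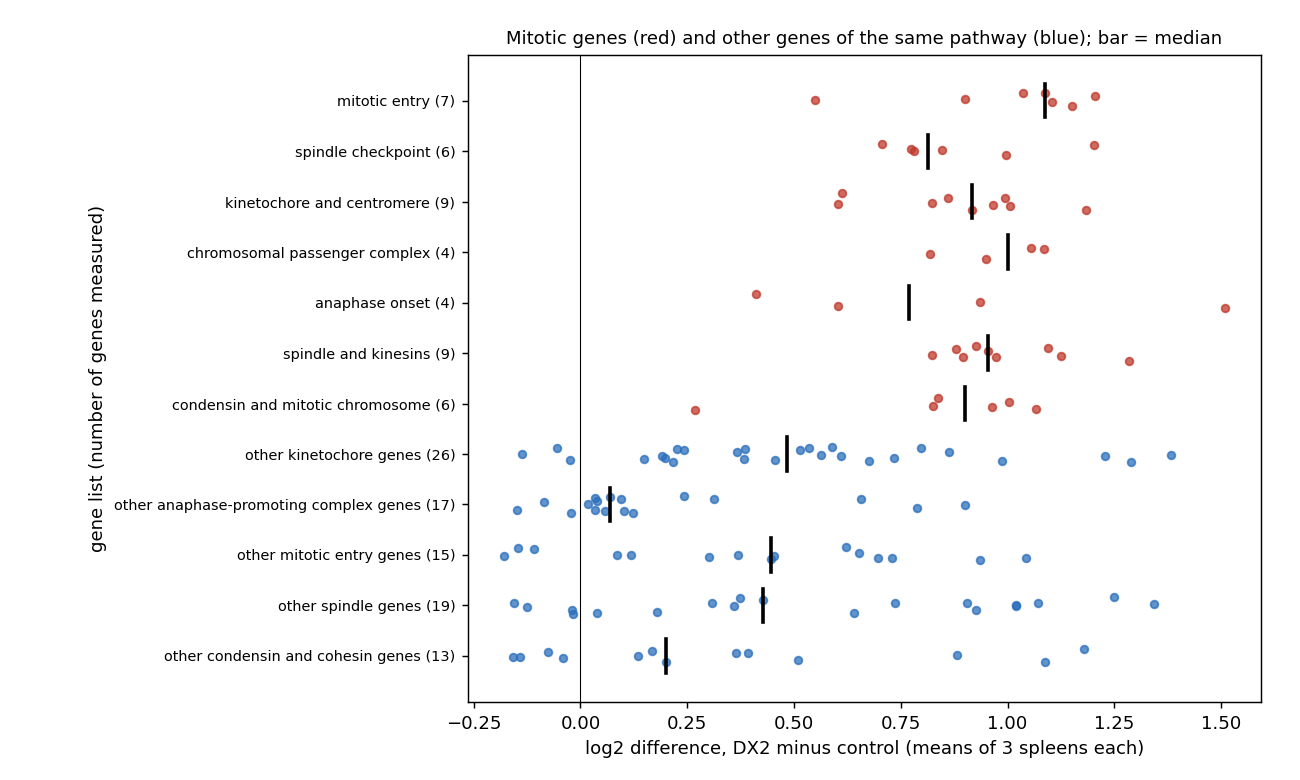
Log2 difference between DX2 and control means (horizontal axis) for each gene of the 7 role groups (red) and of 5 lists of other genes of the machinery (blue), 1 point per gene with the median as a bar. All red points lie to the right of 0, and the medians of the blue lists run from 0.07 for the anaphase-promoting complex to 0.48 for kinetochore genes.

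Erythroid transcripts, which mark the red cell lineage, were also lowest in control 1 and highest in DX2 1 and DX2 3, and stood differently from the mitotic genes in DX2 2. All 24 measured erythroid genes had a higher mean in DX2 (median difference 1.13), against 51.5% of all genes. At an unadjusted p under 0.05, 2 of the 24 were higher, against 8.13% of all genes. None had groups without overlap, against 10.7% of all genes, and none passed limma's test over all genes. Their mean log2 value was 6.66, 8.21 and 8.13 in controls 1, 2 and 3 and 9.63, 7.47 and 9.29 in DX2 1, 2 and 3. DX2 2 thus lay below controls 2 and 3 in erythroid transcripts and above both in the mean of the mitotic genes. Counted by gene, DX2 2 exceeded all controls for 0 of 24 erythroid genes and for 31 of 45 mitotic genes, against 33.9% of all genes. The part of the erythroid difference in the mitotic one was not tested.

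**Figure D3:**
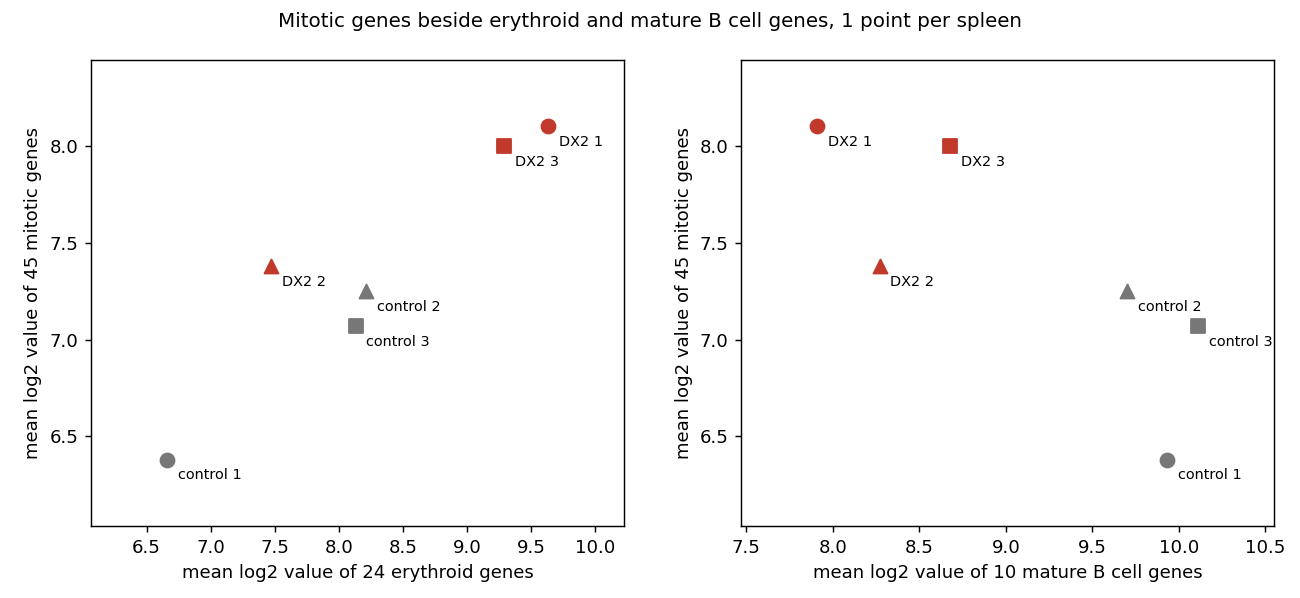
Mean log2 value of the 45 mitotic genes (vertical axis) against that of 24 erythroid genes (left) and 10 mature B cell genes (right), 1 point per spleen, gray control and red DX2. DX2 2 lies left of controls 2 and 3 on the erythroid axis (7.47 against 8.21 and 8.13) and above both on the mitotic axis (7.38 against 7.25 and 7.07).

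**Figure D4:**
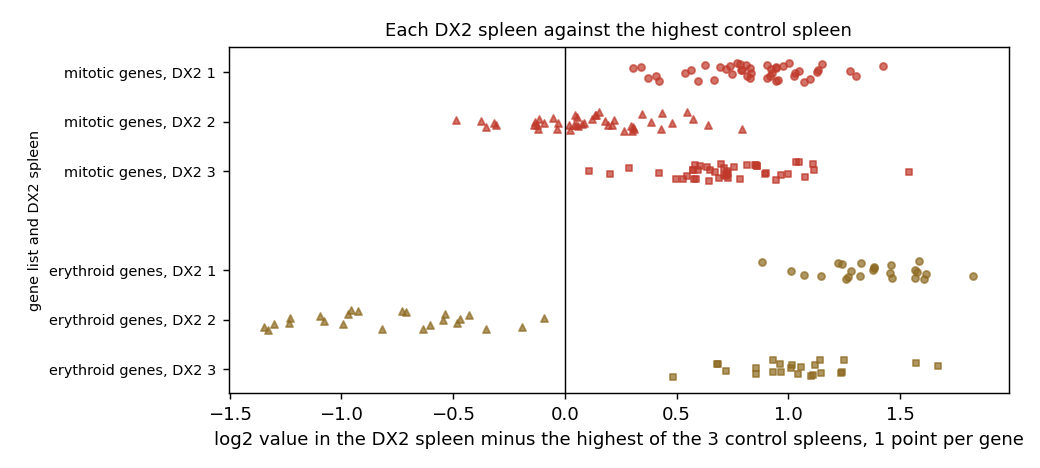
Log2 value of each gene in a DX2 spleen minus its highest value among the 3 control spleens (horizontal axis), for 45 mitotic genes (red) and 24 erythroid genes (brown), 1 point per gene. In DX2 2 all 24 erythroid points lie left of 0 and 31 mitotic points lie right of it, and in DX2 1 and DX2 3 every point lies to the right.

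Markers of germinal centre B cells and of plasma cells were not higher in DX2 spleens on average. Activated B cells and plasmablasts had no list of their own. The mean of 8 germinal centre B cell genes ran from 6.56 to 6.82 in control and from 6.51 to 6.55 in DX2 spleens (log2), with 4 of 8 higher. Of 10 plasma cell genes 2 were higher (median -0.13), with means of 8.10 to 8.34 in control and 7.86 to 8.29 in DX2 spleens. At an unadjusted p under 0.05 neither list held a higher gene. Each held 1 lower gene, Rgs13 (-1.15) and Irf4 (-0.68), against 7.81% of all genes. Each also held 1 gene lower without overlap, Bcl6 (-0.13) and again Irf4, against 11.2% of all genes. Stem and progenitor genes kept the order of the mitotic genes within the DX2 group only. The 9 genes had means of 5.95 to 6.04 in control and of 6.30, 5.96 and 6.29 in DX2 1, 2 and 3. Of the 9, 5 were higher (median 0.10), 3 of them at an unadjusted p under 0.05, against 8.13% of all genes. Myeloid and platelet lineage genes were higher in DX2 1 above all. Early granulocyte genes all had a higher DX2 mean (11 of 11, median 0.51), at a mean of 8.23 in DX2 1 but 6.59 and 6.51 in DX2 2 and DX2 3 against 6.40 to 6.80 in control spleens. Megakaryocyte genes (7 of 7 higher, median 0.44) showed 9.12 in DX2 1, and 6.89 and 7.44 in the other DX2 spleens against 6.93 to 7.58 in control. Mature neutrophil genes (7 of 8 higher, median 0.61) also peaked in DX2 1, at 8.44 against at most 7.54 elsewhere.

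Lymphocyte and macrophage markers ran differently again. All 10 mature B cell genes were lower in DX2 without overlap, against 11.2% of all genes, with means of 9.93, 9.70 and 10.11 in control and 7.91, 8.27 and 8.68 in DX2 spleens (log2). Cd79b, Cr2, Fcer2a, Ebf1 and Cxcr5, 5 of those 10, passed limma's test over all genes as lower, against 0.28% of all genes. None of the 10 passed without control 1, control 2, control 3 or DX2 3, 1 passed without DX2 1 and 5 without DX2 2. With a term for sex, with the replicate number as a block or with arrays centred on their medians, none of the 10 passed. The 10 T cell genes all had a lower DX2 mean (median -0.38), 1 of them at an unadjusted p under 0.05, against 7.81% of all genes. Their mean was 6.77 in DX2 1 and 8.20 and 7.97 in DX2 2 and DX2 3, against 7.84 to 8.10 in control. Of 14 red pulp macrophage genes 10 had a higher DX2 mean (median 0.44 over the 14), 8 of them at an unadjusted p under 0.05, against 8.13% of all genes. The mean of the 14 ran from 8.43 to 8.70 in control and from 8.81 to 9.0 in DX2 spleens. The other 4 had a lower DX2 mean, namely Timd4 (-0.97), Siglec1 (-0.78), Slc40a1 (-0.33) and Hmox1 (-0.03). Timd4 was lower without overlap and at an unadjusted p under 0.05 (SE 0.30, adjusted p = 0.188). Cd5l, a protein secreted by macrophages, was the only one of the 14 to pass limma's test over all genes (1.35, SE 0.18, adjusted p = 0.0422). Its adjusted p was 0.195, 0.169 or 0.175 without control 1, 2 or 3, 0.0629 or 0.106 without DX2 1 or DX2 3, and 0.0365 without DX2 2. In that last fit 3 of the 14 passed as higher, against 0.893% of all genes. With a term for sex Cd5l differed by 1.12 (adjusted p = 0.369). What part any of these cells had in the mitotic differences was not tested.

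The direction of the 45 genes held under every setting run, and the number past the threshold did not. All 45 were higher in each of 17 alternative fits, with a median difference between 0.67 (without control 1) and 1.13 (without DX2 2). The count past an adjusted p of 0.05 was 0 without control 1, control 2 or DX2 3 (0.00451% of all genes in each), without control 3 (0.018%) and without DX2 1 (0.0135%), 5 without DX2 2 (Aurkb, Ckap2l, Kif2c, Plk1 and Spc25, against 0.893% of all genes) and 9 with array weights (against 0.987%). At an adjusted p under 0.1 it was 4, namely Ckap2l, Mad2l1, Aurkb and Kif2c, against 0.604% of all genes. It was 0 as well with a sex term, with a replicate block and with centred arrays (0.00451% each) and in the male spleens (0.0%). Ckap2l alone passed with a second quantile normalization (0.0631%), with the mean of probe sets (0.0406%), with the most variable probe set, a variance trend or a robust prior (0.0361% each) and without the 40% dimmest genes (0.21%). With the block, 31 of the 45 had an unadjusted p under 0.05, against 6.64% of all genes. The genes were selected with results of these data known, so their common direction is no independent sign of stability.

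**Figure D5:**
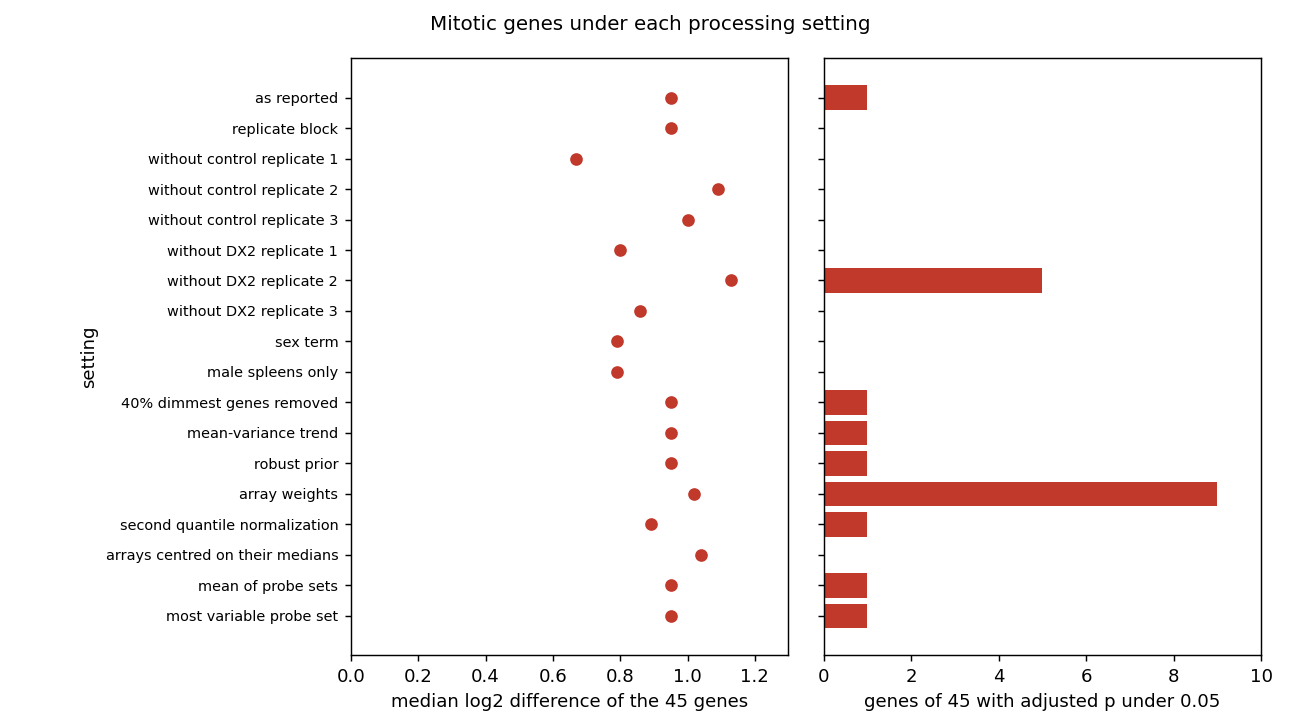
Median log2 difference of the 45 mitotic genes (left) and number of them with an adjusted p under 0.05 (right) as reported and under 17 alternative fits, 1 row per setting. The median stays between 0.67 and 1.13, while the count is 0 or 1 in all settings except without DX2 2 (5) and with array weights (9).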

How the data were processed

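RNA from 6 spleens was hybridised to Affymetrix arrays after Trizol extraction, per the labels. The log2 values used are those the authors deposited, made with RMA per the submitters' processing notes. The scale was inferred from the range of 0.771 to 13.28, and the sources used here do not give the RMA version. RMA would hide a shift shared by most transcripts, and folds can be understated. Arrays carry no read depth.

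By the supplied platform annotation 23521 of 41345 probe sets had 1 gene symbol, 1814 several and 16010 none; 23328 of the first were found in RefSeq's mouse table (GRCm38.p6). Each of 22180 genes was represented by its probe set of highest mean. The groups were compared by limma 3.58.1 (lmFit, eBayes, no covariate; R 4.3.3), DX2 over control, and p-values were adjusted over the 22180 genes by Benjamini-Hochberg. The fit was tested on simulated data. Intervals are limma's 95% intervals.

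The members, lists and tests were chosen with earlier results of these data known. Values on every array are given for the 3 members of smallest unadjusted p in each of the 7 roles and for Smc4, the smallest difference; other lists contribute up to 3 genes in each direction, again by unadjusted p. Alternatives covered arrays left out, sex, filters, priors, weights, normalization and choice of probe set.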

Additional observations from a re-analysis of the deposited data

How the results depend on the processing

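All 45 genes kept their direction under each alternative, and no median of the members or of the 90 other genes moved by more than the spread between replicates. The number of members past an adjusted p of 0.05 (limma, Benjamini-Hochberg) was 1 as reported. With 1 array left out it ranged from 0 to 5, and it was 0 with the replicate number as a block, with a sex term, in the male spleens alone and with arrays centred on their medians, 4 at an adjusted p under 0.1 and 9 with array weights. Members with an unadjusted p under 0.05 numbered 40 as reported, 23 to 44 with 1 array left out, 31 with the replicate block, 10 with a sex term and 17 in the male spleens. The other mitotic genes past the threshold numbered 0 as reported, 0 to 5 with 1 array left out, 6 at an adjusted p under 0.1 and 7 with array weights. Calls over all genes moved as well. Genes called higher were 0.0361% of all genes as reported and 0.00451% to 0.893% with 1 array left out. They were 0.00451% with the block, the sex term or centred arrays, 0.604% at an adjusted p under 0.1 and 0.987% with array weights. At an unadjusted p under 0.05 the share was 8.13% as reported and 5.48% to 9.62% with 1 array left out. With the block it was 6.64%, and with the sex term 3.76%. The labels link same-numbered arrays only by the number. Their deviations correlated across genes at -0.318, -0.142 and 0.068, and not every array correlated best with its own number. With so few arrays per group, these correlations cannot show whether same-numbered arrays shared a batch. With the block Ckap2l had a difference of 1.12 (adjusted p = 0.2), while calls over all genes went from 70 to 1. The lone male control was assumed to vary like the DX2 spleens. The median over all genes was 0.01 as reported and 0.10 after centring. Some of these fits had fewer arrays or degrees of freedom, and the causes of the changes were not tested.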

Other observations

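A probe set annotated to both Ncapg and Lcorl, and so left out of the members, read 6.26, 7.44 and 7.12 in control and 8.09, 7.50 and 8.07 in DX2 spleens (log2). The difference was 0.95, and the order of the spleens was that of the mean of the members. Top2a is also named, together with Taf1d, by 2 further probe sets, which differed by 0.39 and 0.40 against 1.00 on the probe set of Top2a alone, and both were highest in DX2 2 (9.43 and 9.75).

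The promoters of the 90 other mitotic genes were searched in the same way as those of the members. Of their 86 promoters, from 76 genes, 20.9% held a CHR element, 44.2% a CCAAT box and 11.6% both, values that lie between those of the members (41.0%, 74.4% and 35.9%) and of all promoters (16%, 33.8% and 5.55%).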
